A study of Danio rerio with 16 samples.

Results

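The genes described here encode the subunits of the receptors for glutamate, GABA and glycine. They were taken by symbol, as every gene whose symbol begins with gria, grin1, grin2, grin3, grik, grm and a digit, gabra, gabrb, gabrg, gabbr or glra in the table of gene names, and whose mean over the samples was at least 5 normalized counts. The rule found 63 genes among the 22994 of the series, of which 21511 reached that mean and were tested, and no receptor gene was lost to a later filter. They comprise 8 AMPA, 13 NMDA, 6 kainate and 13 metabotropic glutamate receptor genes, 15 GABA-A and 3 GABA-B receptor genes and 5 glycine receptor genes. The table gives human-style symbols to many zebrafish genes, so both copies of a duplicated gene often share a symbol: 14 symbols are held by 2 identifiers each, and such genes are told apart by their Ensembl identifiers.

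RNA-seq was performed on whole zebrafish larvae of the AB strain at 5 dpf. The larvae were WT or klf9-/-. The mutants carried a 2 bp frameshift deletion in exon 1 made with CRISPR-Cas9, in a line that goes back to 1 founder female, and the WT larvae came from homozygous WT siblings in that line. Larvae of each genotype developed from 4 hpf in medium with vehicle (DMSO) or 1 µM cortisol, with 14 h of light and 10 h of darkness a day, and were frozen at ZT3, 3 h after lights-on. Each of the 4 conditions has 4 replicates of 10 larvae, all taken from 1 dish, so the spread between replicates is that of samples of a dish and not of independent cultures. RNA was prepared in 2 sessions. On the first (day 1, replicates 1 and 2) all 8 frozen samples received lysis buffer before the first was homogenized, and on the second (day 2, replicates 3 and 4) buffer and homogenization followed each other sample by sample.

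Glutamate excites neurons of the vertebrate brain through ionotropic AMPA, NMDA and kainate receptors, which are tetrameric cation channels, and tunes them through metabotropic receptors coupled to G proteins. GABA and glycine inhibit through pentameric chloride channels, the GABA-A and glycine receptors, and GABA also acts on the G protein-coupled GABA-B receptor. Cortisol acts through the glucocorticoid and mineralocorticoid receptors. The gene klf9 encodes a zinc-finger transcription factor and is a well-known target of the glucocorticoid receptor.

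The klf9 transcript itself was measured first, as a check of the labels. It gave 274, 250, 243 and 165 normalized counts in vehicle-treated WT larvae, replicates 1 to 4 in that order here and below, and 330, 511, 354 and 340 in cortisol-treated WT larvae. The klf9-/- samples gave 135, 78, 100 and 111 normalized counts with vehicle and 106, 134, 136 and 111 with cortisol. Every klf9-/- sample was below every WT sample, and the mean log2 difference between genotypes was -1.39 (SE 0.13, adjusted p = 2.18e-05, limma with Benjamini-Hochberg adjustment over all tested genes). Transcripts of tissues other than the nervous system were present in every sample: 7 muscle marker genes summed to between 432180 and 508819 normalized counts and 5 skin marker genes to between 283012 and 421885. In whole-larva RNA, fewer neurons and less receptor transcript per neuron cannot be told apart. The deposited values had been set by full-quantile normalization to one distribution, summing to 14653434 normalized counts in every sample, so sequencing depth is unknown and the errors given are those of replicates alone.

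Nearly the whole set of receptor genes differed between preparation days. All 63 were higher in the samples of day 2, with a median log2 difference of 0.75 (range 0.01 to 1.28), and 60 of them passed the test, against 30.3% of all tested genes raised and 32.8% lowered on that day. At an unadjusted p under 0.05 the counts were 61 of 63 and 66.4% of all genes. The largest differences were those of gabrb4 (log2 1.28), grin2ab, a GluN2A-type NMDA subunit (1.26), and gabrg3 (1.16). The 3 that did not pass were glra4a (0.01, adjusted p = 0.904), GRIA4 (ENSDARG00000059368, 0.10, adjusted p = 0.0711) and grin3ba (0.12, adjusted p = 0.335). The AMPA receptor genes had the smallest family median, 0.37, and the GABA-A receptor genes the largest, 0.94. Replicates 1 and 2 of every condition were prepared on day 1, so day, buffer step, replicate number and the order in which samples were collected cannot be told apart.

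The 63 genes summed show the same split. On day 1 they summed to 15057 to 16982 normalized counts in the vehicle-treated WT samples, 13261 to 13333 with cortisol, 17477 to 17502 in vehicle-treated klf9-/- samples, and 14612 to 15589 with cortisol. On day 2 the sums lay between 22300 and 23278 in WT and between 20880 and 23774 in klf9-/- larvae, above every sum of day 1. On day 1 the cortisol-treated samples of a genotype lay below its vehicle-treated samples. On day 2 the same held in WT, by less, while in klf9-/- larvae the ranges overlapped.

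**Figure D1:**
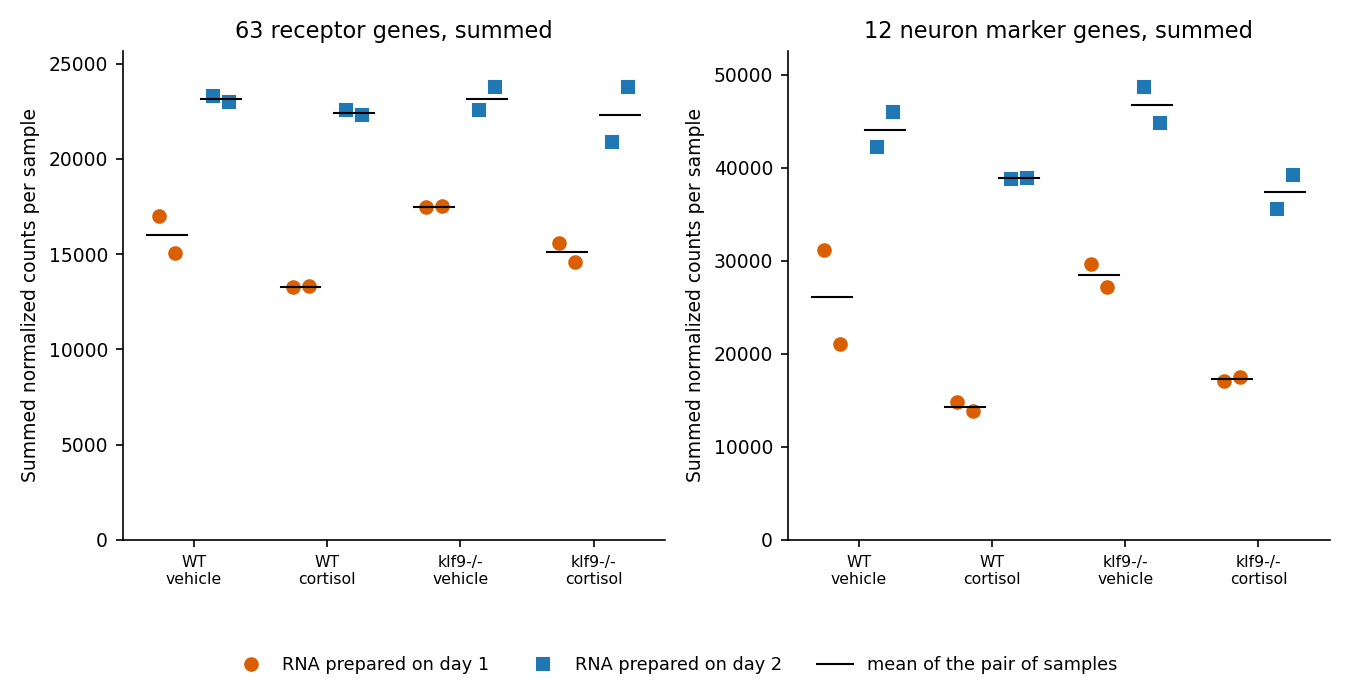
Sums of the 63 receptor genes (left) and of 12 neuron marker genes (right) in each sample, in normalized counts on a linear axis, by condition. Orange circles are samples prepared on day 1 and blue squares those of day 2, and the black bar is the mean of the pair. Every receptor sum of day 1 is below every one of day 2, and the pair means with cortisol lie below those with vehicle in each genotype and day in both panels, by more on day 1.

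Chronic cortisol lowered a large share of the receptor genes when both genotypes were averaged and preparation day was a covariate. Of the 63 genes, 25 were lowered and 0 raised, and all 44 with an unadjusted p under 0.05 had negative differences. Among all tested genes 18.1% were lowered and 14.9% raised, and 45.5% had an unadjusted p under 0.05 in either direction. The median log2 difference of the receptor genes was -0.25 (range -0.65 to 0.07), against -0.02 over all tested genes, and 58 of 63 differences were negative. The SD of that median over replicates was 0.215. The changes of the 25 lowered genes ran from -36.3% to -13.0%. Each of the 25 was negative in both genotypes taken singly, and 24 were negative on both preparation days. The 25 were chosen by the average over these same samples, so such signs are no separate support. All 12 neuron marker genes were lowered too (median -0.37), and the part of neuron content in the receptor result was not tested. With preparation day left out of the model the count was 0. It was 11 without replicate 1 or without replicate 2 of cortisol-treated WT larvae, 16 without replicate 1 of vehicle-treated WT larvae, 14 without replicate 3 of cortisol-treated and 13 without replicate 1 of vehicle-treated klf9-/- larvae. In all 16 fits that each left out a sample 10 of the 25 remained lowered, among them GABRA6 (ENSDARG00000075058), GABRG1, GLRA1, GLRA3, GRIN2C (ENSDARG00000077560) and gabrg3.

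The inhibitory GABA-A receptor family had the highest share of lowered genes, though the difference between families was not tested. This family also had the largest median difference between preparation days, and the AMPA family, least changed by cortisol, the smallest. How far the order of families under cortisol follows that of the days was not tested. Of 15, 11 were lowered (all genes: 18.1%), with a family median of -0.37 and no gene above -0.22. Among them were 5 of 7 alpha, 4 of 5 beta and 2 of 3 gamma subunit genes. The alpha and beta subunits together form the GABA site, and a gamma subunit anchors most synaptic receptors and completes the benzodiazepine site.

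GABRA6 (ENSDARG00000075058), one of a pair of genes for the α6 subunit, which in mammals belongs mainly to cerebellar granule cells, gave 205, 198, 220 and 282 normalized counts in vehicle-treated WT larvae and 138, 121, 202 and 198 with cortisol. The klf9-/- samples gave 196, 187, 239 and 272 with vehicle and 140, 134, 172 and 208 with cortisol. Within each preparation day every cortisol-treated sample was below every vehicle-treated sample, in both genotypes. The mean log2 difference was -0.47 (SE 0.07, 95% interval -0.61 to -0.32, adjusted p = 0.00099), a change of -27.7%.

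The largest mean difference was that of gabrg3, a γ3 subunit gene of low level. Its normalized counts were 20, 24, 38 and 35 in vehicle-treated WT larvae and 6, 8, 31 and 26 with cortisol, and 28, 16, 34 and 37 in vehicle-treated klf9-/- larvae and 14, 16, 26 and 42 with cortisol. The WT groups were apart on each day, whereas the klf9-/- groups met at 16 counts on day 1 and overlapped on day 2. The mean log2 difference was -0.65 (SE 0.19, 95% interval -1.05 to -0.25, adjusted p = 0.018).

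GABRG1, for the γ1 subunit, gave 67, 53, 91 and 97 normalized counts in vehicle-treated WT larvae, 36, 31, 94 and 90 with cortisol, 68, 70, 92 and 101 in vehicle-treated klf9-/- larvae, and 40, 48, 76 and 96 with cortisol. On day 1 the treated samples were the lower in both genotypes, and on day 2 the treatments overlapped. It fell by 0.42 on the log2 scale (SE 0.12, adjusted p = 0.0167). GABRA4, for α4, differed by -0.41 (SE 0.12, adjusted p = 0.023). The α3 gene gabra3 differed by -0.48 with a wider interval (-0.88 to -0.08) and did not pass (adjusted p = 0.0629).

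Glycine receptors carry inhibition mainly in the spinal cord and hindbrain. Of their 5 genes 3 were lowered (all genes: 18.1%), with a family median of -0.35. GLRA1, encoding the α1 subunit of the adult synaptic receptor in mammals, gave 660, 484, 824 and 832 normalized counts in vehicle-treated WT larvae and 312, 302, 830 and 778 with cortisol. The klf9-/- samples gave 562, 614, 948 and 856 with vehicle and 443, 474, 740 and 808 with cortisol. The day 1 groups were apart in both genotypes, and on day 2 only those of klf9-/- larvae were. Its mean log2 difference was -0.38 (SE 0.10, 95% interval -0.59 to -0.16, adjusted p = 0.0143). The others lowered were GLRA3 (-0.35, adjusted p = 0.00886) and glra4b (-0.42, adjusted p = 0.0386). The mean of glra4b, 18.6 normalized counts, was the lowest of all receptor genes, and glra4b did not stay lowered in every fit that left out a sample.

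Of the NMDA receptor genes 6 of 13 were lowered (all genes: 18.1%), with a median of -0.26. GluN1, encoded by the GRIN1 pair, is the obligatory subunit, and neither gene passed the test. ENSDARG00000025728, with the highest mean of the family, gave 2066, 2088, 3014 and 2904 normalized counts in vehicle-treated WT larvae and 2214, 2450, 3014 and 2904 with cortisol, and 2214, 2735, 2958 and 3120 against 2643, 2408, 2572 and 2958 in klf9-/- larvae. Over both genotypes the treatments overlapped on each day, although in WT on day 1 the treated samples were the higher. The mean log2 difference was 0.02 (95% interval -0.12 to 0.15, adjusted p = 0.867).

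GluN2 subunits set the kinetics and the magnesium block of the channel, and 5 of their 8 genes were lowered, with a median of -0.28. The gene grin2ab gave 536, 387, 920 and 890 normalized counts in vehicle-treated WT larvae, 242, 232, 838 and 852 with cortisol, 516, 452, 744 and 908 in vehicle-treated klf9-/- larvae, and 304, 318, 772 and 926 with cortisol. The samples of day 1 separated by treatment without overlap, those of day 2 only in WT. Its mean log2 difference was -0.41 (95% interval -0.68 to -0.14, adjusted p = 0.0229). Of the GluN3 genes, whose product lowers calcium permeability in mammals, grin3a was lowered (-0.25, adjusted p = 0.0342), while GRIN3B (-0.36, adjusted p = 0.0619) did not pass.

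AMPA receptors carry most fast excitation, and none of their 8 genes was lowered or raised by limma (all genes: 18.1% and 14.9%). A single one, GRIA1 (ENSDARG00000021352, log2 -0.18, adjusted p = 0.078), had an unadjusted p under 0.05. The family median was -0.01 and the 95% intervals of all 8 lay within -0.33 to 0.18. GRIA2 encodes the subunit that, once its RNA is edited, makes the channel nearly impermeable to calcium. Its gene ENSDARG00000052765, with the highest mean of the family, gave 750, 670, 876 and 901 normalized counts in vehicle-treated WT larvae, 643, 650, 898 and 886 with cortisol, 820, 795, 940 and 908 in vehicle-treated klf9-/- larvae, and 778, 690, 820 and 906 with cortisol. On day 1 the treated samples were the lower in each genotype, and on day 2 only in klf9-/- larvae, those of WT overlapping. The mean log2 difference was -0.09 (95% interval -0.20 to 0.02, adjusted p = 0.169). The 3 highest differences of the whole set also belonged to AMPA receptor genes: GRIA4 (ENSDARG00000059368) at 0.07 (95% interval -0.03 to 0.17), GRIA3 (ENSDARG00000032737) at 0.03 (-0.11 to 0.18) and the second GRIA2 gene, ENSDARG00000070173, at 0.02 (-0.08 to 0.12).

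Kainate receptors had 2 of 6 genes lowered (all genes: 18.1%), with a median of -0.22. These were GRIK4 and GRIK5, whose products form channels only together with GluK1 to GluK3 in mammals. GRIK2, which encodes a subunit able to form channels alone and had the highest mean of the family, differed by -0.04 (95% interval -0.19 to 0.11, adjusted p = 0.696). Metabotropic glutamate receptors had 3 of 13 genes lowered, near the share of all genes (18.1%), with a median of -0.15. Of the group I receptors, which couple to phospholipase C, 2 of 4 genes were lowered, among them GRM5 (ENSDARG00000004445, -0.31, adjusted p = 0.0428). The group II genes, whose products reduce transmitter release, had 0 of 3 lowered by limma, with 1 at an unadjusted p under 0.05. GRM2 (ENSDARG00000007195), the family's highest by mean, differed by -0.11 (95% interval -0.27 to 0.06). The group III gene lowered was GRM6 (ENSDARG00000017742), which in mammals serves retinal ON bipolar cells. It gave 46, 34, 80 and 86 normalized counts in vehicle-treated WT larvae, 24, 23, 72 and 88 with cortisol, 58, 57, 88 and 90 in vehicle-treated klf9-/- larvae, and 40, 34, 69 and 87 with cortisol. Treated samples were lower without overlap on day 1 in each genotype and on day 2 in klf9-/- larvae only, and the mean log2 difference was -0.41 (SE 0.13, adjusted p = 0.0263).

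The GABA-B receptor is a dimer in which GABBR1 binds GABA and GABBR2 couples to the G protein. None of its 3 genes was lowered by limma (all genes: 18.1%). Of them 2 had an unadjusted p under 0.05, and all lay between -0.24 and -0.20. The gene with the highest mean, gabbr1b, differed by -0.20 (SE 0.11, adjusted p = 0.189).

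**Figure D2:**
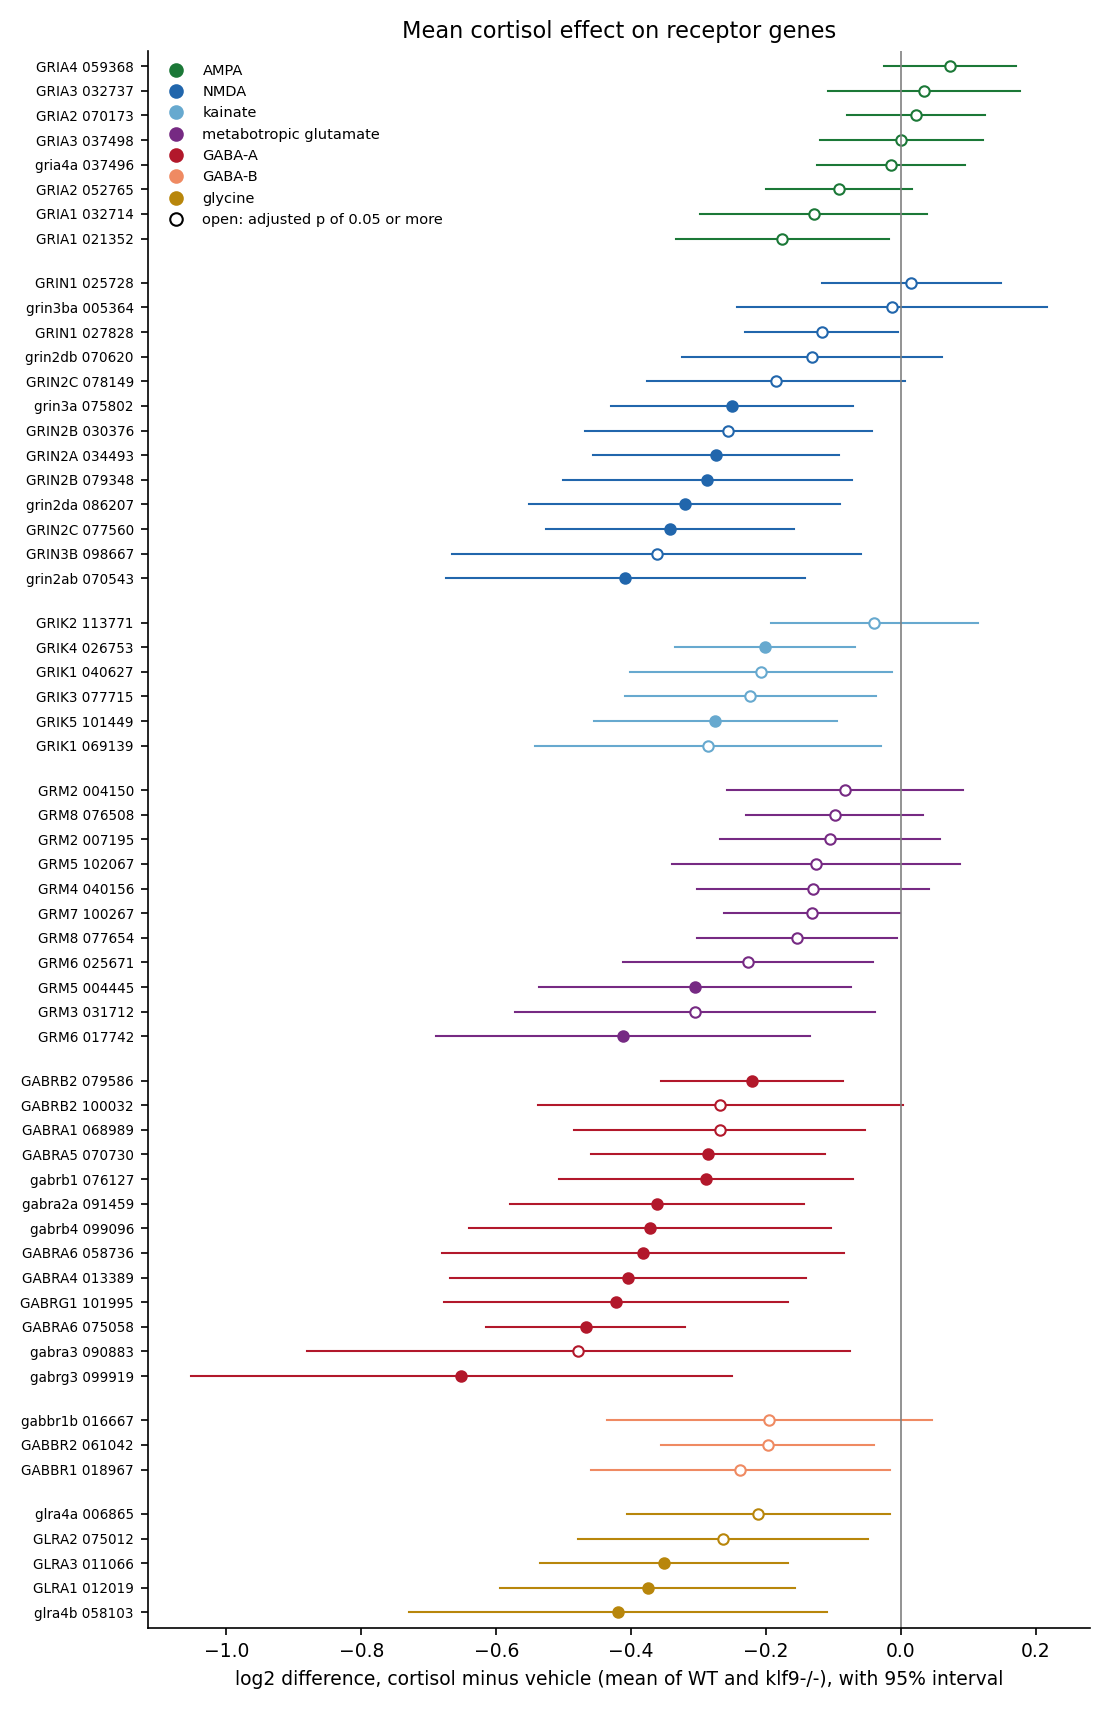
Mean cortisol effect on 59 of the 63 receptor genes, as the log2 difference of cortisol-treated from vehicle-treated larvae averaged over genotypes with preparation day as covariate, with 95% intervals, by family. Filled points have an adjusted p under 0.05 and open points do not, and labels give the symbol and the last digits of the identifier. All 23 filled points lie left of 0, and the median of the AMPA receptor genes, -0.01, taken over all members, is the nearest to it of the 7 families.

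Taken in each genotype alone, the 25 genes lowered on average kept their negative sign, but fewer genes passed. The counts that passed were near the shares of all genes. In WT larvae 4 genes were lowered and 0 raised (all genes: 3.99% lowered, 4.66% raised), 27 had an unadjusted p under 0.05 (all genes: 33.0%) and the median was -0.27. The lowered genes were gabrg3 (a change of -50.1%, SE 0.27 on the log2 scale, adjusted p = 0.0363), GRIN2C (ENSDARG00000077560, -0.64, SE 0.12, adjusted p = 0.00855), GABRA6 (ENSDARG00000075058, -0.48, SE 0.10, adjusted p = 0.0126) and grin3a (-0.46, adjusted p = 0.0345). When only the WT samples entered the fit 0 were lowered, with adjusted p from 0.0754 to 0.111 for these genes, and among genes averaging 75 or more counts 1 was. In klf9-/- larvae 1 gene was lowered and 0 raised (all genes: 2.48% lowered, 2.31% raised), 11 had an unadjusted p under 0.05 (all genes: 28.0%) and the median was -0.21. The gene lowered was the same GABRA6 gene (-0.46, adjusted p = 0.0321). The WT count fell to 2 without replicate 1 and to 1 without replicate 2 of the cortisol-treated WT samples, and to 2 without replicate 1 or replicate 4 of the vehicle-treated ones, while without their replicates 3 it was 9 (cortisol) and 8 (vehicle), and without cortisol replicate 4 it was 14. The klf9-/- count was 0 without any one of replicates 1, 2 and 3 of either treatment, with the adjusted p of GABRA6 up to 0.103, and 4 or 2 without replicate 1 or 3 of vehicle-treated WT larvae.

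The genotypes were then compared by the difference of their cortisol effects. No receptor gene passed the test by limma in either direction, with 2 at an unadjusted p under 0.05 (all genes: 5.73%), and 0.167% of all genes passed with a positive and 0.0% with a negative difference. The median difference, WT minus klf9-/-, was -0.08, and 43 of 63 were negative. The SD of that median over replicates was 0.1, larger than its size, and genes of the same samples do not give independent signs. The count of 2 at an unadjusted p under 0.05 was below the share of all genes, and nothing about a receptor family is read from it. The 2 genes, both for NMDA receptor subunits, are described next. GRIN2C (ENSDARG00000077560), for a GluN2C subunit that in mammals is abundant in cerebellar granule cells, gave 53, 52, 99 and 84 normalized counts in vehicle-treated WT larvae and 26, 29, 70 and 74 with cortisol. The klf9-/- samples gave 49, 48, 84 and 92 with vehicle and 46, 48, 80 and 90 with cortisol. The WT groups were apart on each day, and the klf9-/- groups met or overlapped on each day. Each of these groups holds 2 samples and the gene was chosen from the same samples, so the ranges are no separate support. Its cortisol effect in klf9-/- larvae was -0.05 (95% interval -0.31 to 0.21), and the difference of the effects was -0.59 (SE 0.17, adjusted p = 0.467).

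The second of these genes, grin3a, gave 36, 34, 48 and 62 normalized counts in vehicle-treated WT larvae, 26, 26, 40 and 38 with cortisol, 36, 33, 44 and 50 in vehicle-treated klf9-/- larvae, and 38, 33, 40 and 46 with cortisol. The WT groups were apart on each day and the klf9-/- groups overlapped, with the same limit on such ranges. The difference of the effects was -0.41 (adjusted p = 0.805). For GABRA6 (ENSDARG00000075058) the difference was -0.02 (95% interval -0.32 to 0.27).

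A model with a mean for each condition and day showed that the size of the cortisol effect differed between the preparation days. On day 1, averaged over genotypes, 43 of the 63 receptor genes were lowered and 0 raised (all genes: 25.4% lowered, 22.1% raised, and 54.2% at an unadjusted p under 0.05, which 49 receptor genes reached), with a median log2 difference of -0.43. On day 2, 1 gene was lowered and 0 raised (all genes: 0.86% lowered, 4.0% raised), 3 had an unadjusted p under 0.05 (all genes: 21.2%) and the median was -0.05. The difference of the days passed the test for 22 genes, all with the more negative effect on day 1, and for 0 in the other direction (all genes: 10.9% and 9.81%). At an unadjusted p under 0.05 there were 35 receptor genes and 35.9% of all genes. The median difference was -0.36. Each day rests on 4 samples per treatment, 2 of each genotype. The count of 22 became 14 without replicate 4 of the cortisol-treated samples of either genotype or replicate 1 of vehicle-treated klf9-/- larvae.

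All 15 GABA-A receptor genes were lowered on day 1 (all genes: 25.4%), with a median of -0.66. So were all 3 GABA-B receptor genes (median -0.47) and all 8 GluN2 genes (median -0.52). Also lowered were 9 of 13 metabotropic glutamate, 4 of 6 kainate and 2 of 5 glycine receptor genes. The AMPA receptor genes had 1 of 8 lowered on that day, GRIA1 (ENSDARG00000021352, -0.37, adjusted p = 0.000977), and the GluN1 pair had none, with ENSDARG00000025728 at 0.10.

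The greatest difference between days was that of gabra3, for the α3 subunit. On day 1 it gave 40 and 30 normalized counts in vehicle-treated WT larvae against 22 and 14 with cortisol, and 54 and 60 against 25 and 37 in klf9-/- larvae. On day 2 it gave 76 and 57 against 52 and 76 in WT, and 76 and 65 against 63 and 82 in klf9-/- larvae. Within each genotype the treatments were apart on day 1 and overlapped on day 2. The cortisol effect was -0.94 on day 1 (adjusted p = 0.00181) and -0.02 on day 2 (adjusted p = 0.971), and their difference was -0.92 (adjusted p = 0.0321).

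For gabbr1b the signs differed. Its normalized counts on day 1 were 300 and 274 in vehicle-treated WT larvae against 206 and 173 with cortisol, and 312 and 328 against 239 and 215 in klf9-/- larvae. On day 2 they were 500 and 394 against 436 and 463 in WT, and 379 and 442 against 470 and 541 in klf9-/- larvae. Treated samples were the lower on day 1 in both genotypes, and on day 2 they were the higher in klf9-/- larvae and lay between the vehicle values in WT. The effect was -0.55 on day 1 (adjusted p = 0.000544) and 0.16 on day 2 (95% interval -0.04 to 0.36), and the days differed by -0.71 (adjusted p = 0.00442).

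The same comparison gave -0.79 and -0.03 for grin2ab (difference -0.76, adjusted p = 0.00461). For GRIN3B the difference was -0.71 (adjusted p = 0.0497) and for GLRA1 -0.49 (adjusted p = 0.0162). For gabrg3, at -1.07 and -0.23, the difference did not pass (-0.84, adjusted p = 0.0556). GRM5 (ENSDARG00000004445) had a difference of -0.55 (adjusted p = 0.0153).

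GABRA6 (ENSDARG00000075058) was the one receptor gene lowered on each day, with a log2 difference of -0.56 on day 1 (adjusted p = 0.000447) and -0.37 on day 2 (SE 0.09, adjusted p = 0.0376), a change of -22.8% on the later day. The difference of the days was -0.19 (adjusted p = 0.328). Ranges of the same samples are given next and are no separate support. On day 1 all 4 cortisol-treated samples were below all 4 vehicle-treated for 20 of 63 receptor genes (16.2% of all genes). On day 2 this held for 3 of 63, near the share of all genes (6.36%): GABRA6 (ENSDARG00000075058), GLRA3 and glra4a. No receptor gene was above without overlap on either day, against 14.5% and 5.73% of all genes.

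**Figure D3:**
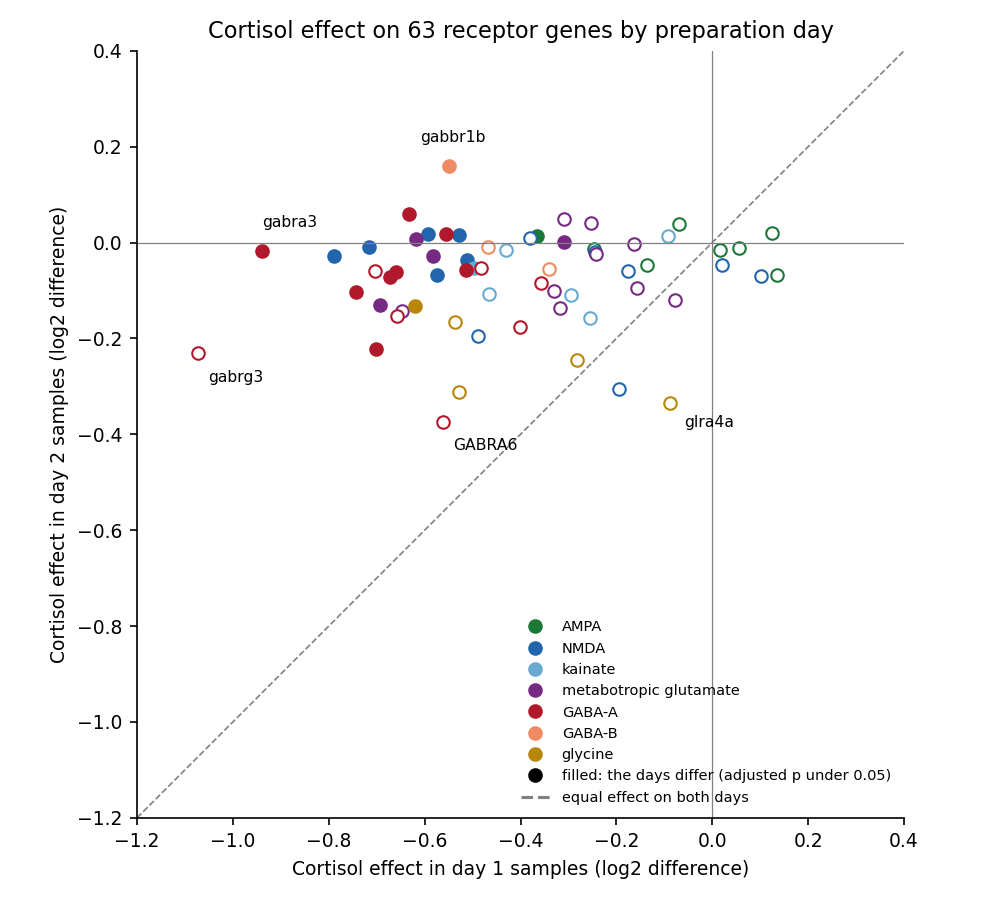
Cortisol effect averaged over genotypes on preparation day 1 (horizontal axis) and day 2 (vertical axis) for the 63 receptor genes, as log2 differences; filled points are the 22 genes whose days differ at an adjusted p under 0.05, and the dashed line marks equal effects. The points spread from -1.07 to 0.14 on day 1 but from -0.37 to 0.16 on day 2.

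By genotype, 35 receptor genes were lowered on day 1 in WT (all genes: 21.6% lowered, 18.0% raised) and 21 in klf9-/- larvae (all genes: 9.47% lowered, 6.85% raised), 18 of them in both. At an unadjusted p under 0.05 in either direction the counts were 44 (all genes: 49.1%) and 33 (33.0%). Those of WT include GRIA4 (ENSDARG00000059368) with a rise (0.21). On day 2 the count was 0 in either genotype by limma. At an unadjusted p under 0.05 in either direction there were 4 genes in each, those of klf9-/- larvae including gabbr1b with a rise (0.30). All genes then gave 0.0465% lowered, 1.46% raised and 11.2% at the unadjusted threshold in WT, and 0.107%, 0.711% and 18.2% in klf9-/- larvae. The days differed for 14 genes in WT, all more negative on day 1 (all genes: 8.31%, and 7.83% in the other direction), and for 0 in klf9-/- larvae by limma (all genes: 0.139% and 0.0279%). At an unadjusted p under 0.05 there were 29 in WT (all genes: 32.9%) and 12 in klf9-/- larvae (all genes: 15.0%). The WT count of 14 became 2 without any one of replicates 2, 3 and 4 with cortisol or replicates 1 and 3 with vehicle, 7 without cortisol replicate 1 or vehicle replicate 4, and 24 without vehicle replicate 2. The klf9-/- count of 0 became 2 without replicate 1 or 2 of vehicle-treated WT larvae. In WT, gabrg3 had an effect of -1.65 on day 1 (adjusted p = 0.00118), and the days differed by -1.29 (adjusted p = 0.0492).

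**Figure D4:**
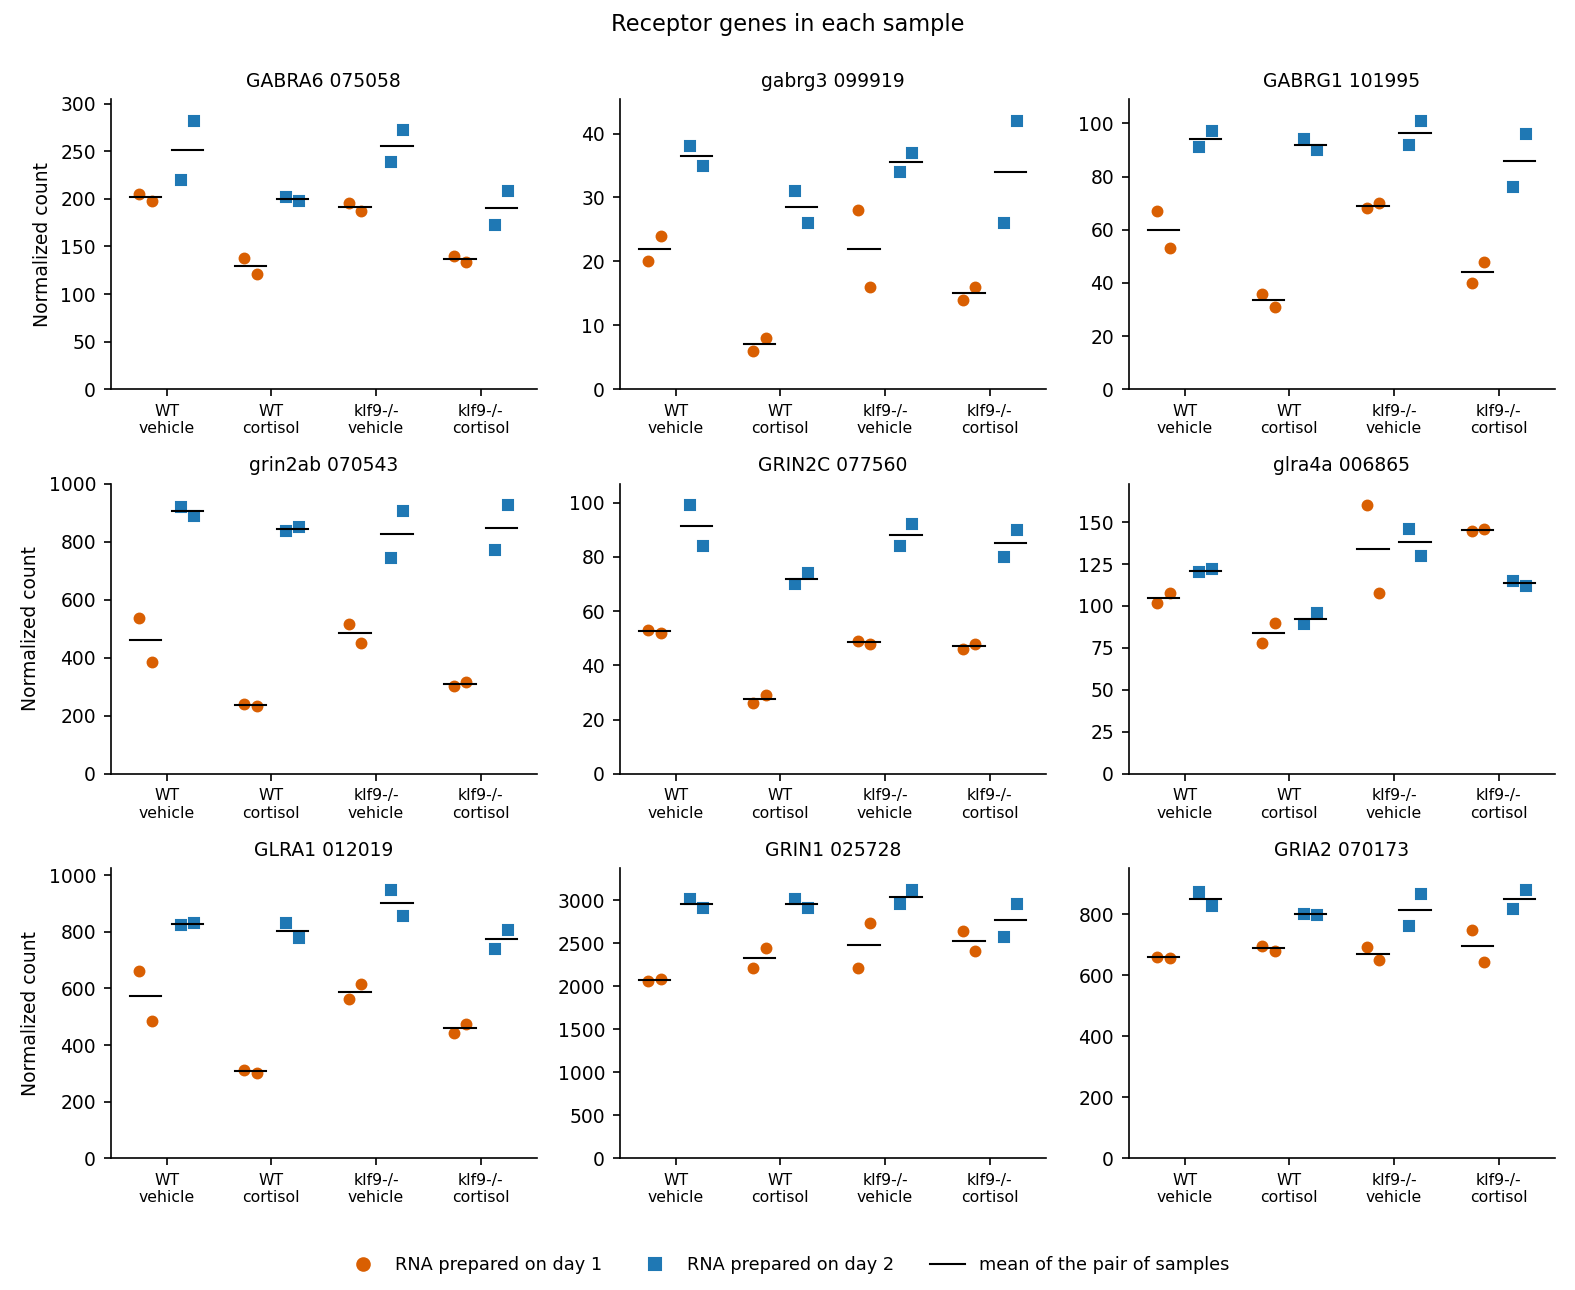
Normalized counts in each sample, on linear axes starting at 0, for 9 receptor genes by condition, with orange circles for day 1, blue squares for day 2 and a black bar at the mean of each pair. GABRA6 is lower with cortisol on both days, most others mainly on day 1, GRIN1 (ENSDARG00000025728) and GRIA2 (ENSDARG00000070173) have cortisol-treated pairs above and below vehicle-treated pairs, and the 4 highest glra4a values belong to klf9-/- samples.

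Loss of klf9 moved few receptor genes. With vehicle 0 genes passed in either direction by limma (all genes: 0.218% raised, 0.367% lowered), with 3 at an unadjusted p under 0.05 (all genes: 12.8%), all positive, and the median log2 difference between klf9-/- and WT larvae was 0.06. With cortisol 2 genes were raised and 0 lowered (all genes: 0.618% raised, 1.46% lowered), 6 had an unadjusted p under 0.05 (all genes: 12.7%) and the median was 0.10. Averaged over treatments 1 gene was raised and 0 lowered (all genes: 1.85% raised, 2.83% lowered), and 7 had an unadjusted p under 0.05 (all genes: 18.6%), with a median of 0.09 against 0.01 over all genes, and 56 of 63 differences were positive. The SD of that median over replicates was 0.128, larger than the median. The genes were measured in the same samples, so their signs are not independent. The family medians lay between 0.07 for the AMPA and GABA-A receptor genes and 0.13 for the glycine receptor genes.

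The gene raised on average was glra4a, which encodes a glycine receptor α4 subunit. The gene gave 102, 108, 120 and 122 normalized counts in vehicle-treated WT larvae and 78, 90, 89 and 96 with cortisol, and 160, 108, 146 and 130 in vehicle-treated klf9-/- larvae and 145, 146, 115 and 112 with cortisol. With cortisol every klf9-/- sample was above every WT sample, and with vehicle the genotypes overlapped. The mean log2 difference was 0.40 (SE 0.09, 95% interval 0.21 to 0.60, adjusted p = 0.0202), a rise of 32.0%. It was 0.55 with cortisol (SE 0.13, adjusted p = 0.0405) and 0.26 with vehicle (95% interval -0.02 to 0.53, adjusted p = 0.431). Without replicate 2 of the cortisol-treated klf9-/- samples the mean difference was 0.37 and did not pass (adjusted p = 0.0516). The cortisol effect on this gene, averaged over genotypes, was -0.21 (adjusted p = 0.0846), and its level did not differ by preparation day at the threshold.

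GRIN2C (ENSDARG00000077560) was the second gene higher in klf9-/- larvae with cortisol, by 0.51 (SE 0.12, 95% interval 0.24 to 0.77, adjusted p = 0.0453), and gave -0.08 with vehicle (95% interval -0.34 to 0.18). With cortisol, the difference of GRIN2C lost the threshold in 13 of the 16 fits that left out a sample (adjusted p up to 0.149) and that of glra4a in 10 (up to 0.156). The highest mean genotype difference was that of gabra3 (0.45, adjusted p = 0.215), above glra4a. Next below glra4a came GRM6 (ENSDARG00000017742, 0.31, adjusted p = 0.208). Neither gabra3 nor GRM6 passed. Among the lowest were GABRA4 (-0.15, adjusted p = 0.57) and glra4b (-0.11, adjusted p = 0.734).

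Genotype differences were likewise seen on day 1 and not on day 2, but the difference between days did not pass for any receptor gene. On day 1, averaged over treatments, 10 receptor genes were raised in klf9-/- larvae and 0 lowered (all genes: 2.89% raised, 3.09% lowered), and 31 had an unadjusted p under 0.05 (all genes: 22.7%), with a median of 0.19. They were GABBR2, GLRA1, GRM8 (ENSDARG00000077654), GRIK5, grin2db, grin2da, glra4a, GABRB2 (ENSDARG00000100032), GRM6 (ENSDARG00000017742) and gabra3, with log2 differences from 0.30 to 0.75. On day 2 the count was 0 in either direction by limma (all genes: 0.483% raised, 0.669% lowered), with 2 at an unadjusted p under 0.05 (all genes: 10.2%) and a median of 0.00. With cortisol alone, 5 were raised on day 1 and 0 lowered (all genes: 1.16% and 1.57%), 25 having an unadjusted p under 0.05 (19.1%), and on day 2 the count was 0 by limma (all genes: 0.135% raised, 0.381% lowered), with 0 at an unadjusted p under 0.05 (7.97%). The difference of the days passed for 0 receptor genes by limma and for 0.0% of all genes, with 13 receptor genes at an unadjusted p under 0.05 (all genes: 5.83%). The klf9-/- samples lay above the WT samples of day 1 without overlap for 2 receptor genes, near the share of all genes (2.31%), and below them for 0 (2.69%). The 2 genes were grin2db and GRIK2, of which GRIK2 is not among the 10 raised. On day 2 neither direction had a receptor gene (2.22% above and 2.09% below among all genes).

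**Figure D5:**
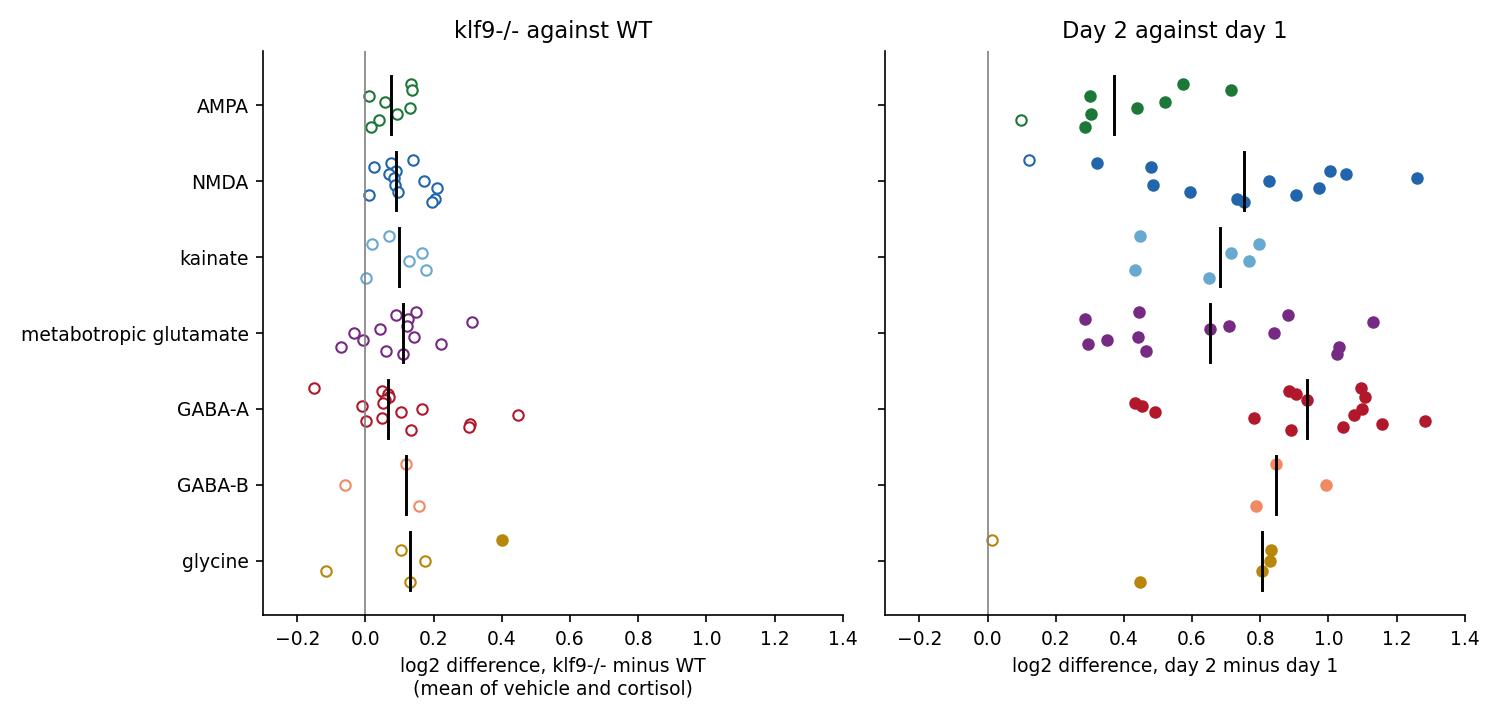
Log2 difference of klf9-/- from WT larvae averaged over treatments (left) and of day 2 from day 1 (right) for the 63 receptor genes by family; filled points have an adjusted p under 0.05 and the black bar is the family median. The genotype medians lie between 0.07 and 0.13 with 1 filled point, glra4a, whereas 60 of 63 day differences are filled and the AMPA receptor genes have the lowest day median, 0.37.

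Genes that share a symbol were measured separately. Of the GABRA6 pair, both were lowered by cortisol on average, with log2 differences of -0.47 for ENSDARG00000075058 and -0.38 for ENSDARG00000058736 (adjusted p = 0.0477), while the difference of day 2 from day 1 was 0.45 in the former and 1.11 in the latter. GRM5 gave -0.31 for ENSDARG00000004445 (adjusted p = 0.0428) and -0.13 for ENSDARG00000102067 (adjusted p = 0.342). GRIN2C gave -0.34 for ENSDARG00000077560 (adjusted p = 0.0102) and -0.19 for ENSDARG00000078149 (adjusted p = 0.12). The GRIN1 genes gave 0.02 and -0.12. The difference within a pair was not tested, and how reads shared by near-identical copies were divided by the authors' counting may affect each value.

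Genes that work with the receptors were taken from lists written from general knowledge. Of 52 tested genes for postsynaptic scaffolds and auxiliary subunits, 28 were lowered by cortisol on average and 1 raised, beside 18.1% lowered and 14.9% raised of all genes, with a median log2 difference of -0.25 (all genes: -0.02). Of 34 genes for synthesis and transport of glutamate, GABA and glycine, 17 were lowered and 1 raised, with a median of -0.30. Of 14 further receptor subunit genes outside the symbol rule, 2 were lowered, with a median of -0.14. On day 2 against day 1, 50 of the 52 scaffold and auxiliary genes were raised (all genes: 30.3%), as against 22 raised and 3 lowered of the 34 transmitter genes.

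General neuron markers fell with cortisol as well. All 12 neuron marker genes were lowered by cortisol on average (all genes: 18.1%), with a median of -0.37. On day 1 all 12 were lowered (all genes: 25.4%, median of the markers -0.56), and on day 2 none was by limma (all genes: 0.86%), with 5 at an unadjusted p under 0.05 (all genes: 21.2%) and a median of -0.21. They summed on day 1 to 21056 to 31184 normalized counts in vehicle-treated and 13837 to 14814 in cortisol-treated WT samples, and on day 2 to 42191 to 46044 and 38842 to 38903. In klf9-/- larvae the sums were 27235 to 29699 and 17089 to 17468 on day 1, and 44803 to 48695 and 35544 to 39241 on day 2. Cortisol-treated samples were thus below vehicle-treated samples within each day and genotype, for the markers on both days.

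Per 1000 neuron-marker counts the receptor genes summed to 545, 715, 552 and 500 in vehicle-treated WT larvae and 895, 964, 581 and 573 with cortisol, and to 588, 643, 463 and 531 in vehicle-treated klf9-/- larvae and 912, 837, 587 and 606 with cortisol. The ratio was higher in each cortisol-treated sample than in the vehicle-treated samples of its day and genotype. A sum weights genes by their counts, and the GRIN1 pair, which did not pass the test, had the means 2641 and 2190. By gene, the GABA-A receptor family had a median of -0.66 on day 1 and the neuron markers one of -0.56. Averaged over days both medians were -0.37, and on day 2 that of the GABA-A family was the less negative. Photoreceptor markers also moved with treatment: 6 of 7 were lowered on average (all genes: 18.1%, median of the markers -0.75), and in WT on day 1 they summed to 33945 to 65630 normalized counts with vehicle and 15971 to 17464 with cortisol, against 72885 to 83477 and 72851 to 73417 on day 2. The photoreceptor sums of klf9-/- larvae were 40794 to 44057 with vehicle and 18162 to 19698 with cortisol on day 1, and 88904 to 89880 and 53255 to 85140 on day 2. Some other markers moved the opposite way. All 7 macrophage marker genes, held under 2 symbols, were raised by cortisol on average (all genes: 14.9%), with a median of 1.20. In WT on day 1 they summed to 172 to 279 normalized counts with vehicle and 1001 to 1197 with cortisol. The klf9-/- sums of that day were 244 to 249 and 257 to 369. Of 7 oligodendrocyte marker genes, 3 were raised and 1 lowered on day 1 (all genes: 22.1% and 25.4%), when they summed in WT to 3955 to 4893 normalized counts with vehicle and 7312 to 7327 with cortisol, and in klf9-/- larvae to 3559 to 5128 and 6264 to 6881. On day 2 the oligodendrocyte sums were 3935 to 4084 and 3742 to 3946 in WT, and 4031 to 4155 and 3571 to 3814 in klf9-/- larvae. Of 5 skin marker genes 2 were raised on day 1 (all genes: 22.1%). The WT sums of that day were 283012 to 314013 with vehicle and 379912 to 380053 with cortisol. In klf9-/- larvae the skin sums of day 1 were 323302 to 347132 and 397321 to 421885. The skin sums of day 2 were 293950 to 328238 and 291690 to 294478 in WT, and 285340 to 293824 and 336640 to 347031 in klf9-/- larvae. Radial glia marker sums were lower with cortisol on day 2 in both genotypes, but not on day 1. The part of these cell types in the fall of the receptor genes was not tested.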

How the data were processed

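Total RNA of whole larvae was sequenced as single-end 75 bp reads. Per the submitters' notes and the study's methods, reads were trimmed with Trimmomatic 0.38, aligned with STAR 2.6.1b to GRCz11 with Ensembl release 93 and counted per gene with RSEM 1.3.0. The authors normalized the counts with EDASeq in R 3.6.1, for GC content within samples and then by full-quantile normalization between samples, and deposited log2 values of the normalized count plus 0.1. After removal of the log and of 0.1, 100% of values were whole within 1e-06. Full-quantile normalization fixes the distribution in each sample, so a change in total RNA cannot be seen and a gene's value depends on its rank. The authors tested for differences with DESeq2 1.24.0 and a batch covariate, a step their methods place after the normalization. Here limma was used, since full-quantile normalization has replaced each sample's own counts and total, which a count test needs.

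Symbols were taken from a table of gene names and covered 21794 of 22994 identifiers. Every gene averaging 5 or more normalized counts was fitted with limma 3.58.1 in R 4.3.3 on the log2 values as deposited, with a mean per condition, preparation day as covariate, and eBayes with trend. All 16 samples shared the fit, and Benjamini-Hochberg adjustment ran over the 21511 genes tested, with a threshold of 0.05. "Lowered" and "raised" mean past that threshold. The day-specific values came from a fit with a mean per condition and day. Percent changes are 2 to the power of the log2 difference, minus 1. Because 0.1 stands inside the log, changes of low genes are little damped. The fit with day as covariate was tested on simulated data in which 200 genes had the same cortisol effect on both days. It recovered 92% of the larger and 62% of the smaller simulated differences, with 12 false calls. Far fewer genes were changed there than were called in the data, where 3207 were raised and 3902 lowered. Noise was drawn for each gene independently. These rates therefore do not carry over to the calls made in the data. Nearly all receptor genes differed by less than the smaller size, and effects that differ between days were not simulated. Sums and figures were made with Python 3.11.15, pandas 2.3.3, numpy 2.4.6 and matplotlib 3.10.9.

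The receptor genes, the marker lists and the pathway lists were chosen with earlier results of these data known, and no list is independent evidence. Genes named singly were, for each comparison other than day, up to 6 passing genes per direction by size of change, the gene of highest mean in each family, the 3 highest and 3 lowest differences for the mean cortisol and mean genotype effects, and klf9. Of the receptor genes this takes, 22 are given and the others are not reported here by name, though all counts include them. Other genes given by name (GLRA3, GRIK4, GRIK5, GRIA1, gabrb4, grin3ba, partners of a shared symbol and the genes that differed between genotypes on day 1) were chosen after their values were seen. Replicate numbers were checked for pairing. After subtraction of condition means, the median r between samples of the same number, over genes, was 0.45 (24 pairs of samples). After subtraction of the means of condition and day it was 0.0039. With 2 samples per such mean, their deviations mirror each other, so r values repeat and fewer than 24 are distinct. The numbers carried preparation day, and no further pairing was seen.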

Additional observations from a re-analysis of the deposited data

Results flagged for a closer look

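The cortisol effect on the receptor genes differed between the preparation days. Averaged over genotypes, 22 of the 63 genes had a difference of the day effects with an adjusted p under 0.05 in limma, each with the more negative effect on day 1. In WT larvae alone the number was 14, again each more negative on day 1. In klf9-/- larvae it was 0, with 12 genes at an unadjusted p under 0.05 (all genes: 15.0%), and whether the difference between days itself differs between genotypes passed for 0 receptor genes, with 4 at an unadjusted p under 0.05 (all genes: 8.34%). Among 22 named genes in 4 conditions, 88 groups of 4 samples were examined for a sample standing apart from the others, and 0 were found. Each group held samples of both preparation days, whose levels differed for most receptor genes, so this examination could miss such a sample.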

How the results depend on the processing

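The cortisol counts rest on preparation day. With day left out of the model, the number of receptor genes lowered was 0 for the mean of genotypes, for WT and for klf9-/- larvae, and the numbers raised in klf9-/- larvae with cortisol and on average were 0. With a mean of its own for each condition on each day, the lowered genes were 43 for the mean, 33 in WT and 14 in klf9-/- larvae, and 4 were raised in klf9-/- larvae on average. Day 1 alone and day 2 alone were chosen as alternatives after seeing the data. Lowered genes numbered 43 and 1 for the mean, 35 and 0 in WT, and 21 and 0 in klf9-/- larvae, and raised genes in klf9-/- larvae 5 and 0 with cortisol and 10 and 0 on average. On day 2 alone the mean cortisol effect turned to -0.012 for GRIA2 (ENSDARG00000070173) and -0.068 for GRIA3 (ENSDARG00000032737).

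Fitting only the samples compared gave 0 lowered in WT, 3 in klf9-/- larvae and 1 raised in klf9-/- larvae with cortisol. A mean of at least 75, which fewer genes reach, gave 1, 2 and 0, and no limit on the mean gave 1 raised with cortisol. The median difference between days, -0.36, became -0.29 with a mean of at least 75 and -0.30 with a pseudocount of 10. Centring samples on their medians changed nothing, all medians being 7.02. A replicate block in place of day gave 0 genes raised with cortisol, 3 lowered in WT in place of 4 and 23 lowered for the mean in place of 25, the calls lost including gabrg3 in WT and GRM5 (ENSDARG00000004445) for the mean. Further causes of these shifts were not tested.

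Leaving out each sample in turn gave 11 to 34 lowered for the mean, 1 to 14 in WT and 0 to 4 in klf9-/- larvae, and 0 to 2 raised in klf9-/- larvae with cortisol and 0 to 1 on average. For the difference between days it gave 14 to 28 lowered and 0 to 1 raised for the mean (median -0.41 to -0.29), 2 to 24 lowered in WT (median -0.46 to -0.27) and 0 to 2 in klf9-/- larvae. The day counts stayed at 60 to 61.

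Depth is unknown, each day holds 2 samples per condition, and all samples of a condition come from 1 dish, so dish and condition cannot be told apart.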
